A study of Mus musculus with 4 samples.

Results

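The genes described are *Notch1*, *Notch3*, *Hes1*, *Dtx1*, *Ptcra*, *Il2ra*, *Cd44*, *Erg* and *Myl10*, a group of 9 genes known from double-negative (DN) thymocytes, the stage without surface CD4 or CD8. They were chosen by name, and all 9 of them were found among the 21926 genes of the files, each with 1 entry. Their levels were followed in single-cell RNA libraries from DN-like cells into cycling-like cells and double-positive (DP)-like cells, which carry both coreceptors.

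Thymocytes were taken unsorted from 2 mice, each homozygous for the floxed *Eif4g2* allele, 5 weeks old, labelled female and placed in the same batch by the labels. The WT mouse carried no Cre, and the cKO mouse (CD4-Cre; Eif4g2 flox/flox) carried the *Cd4*-*Cre* transgene. This transgene is driven by *Cd4* regulatory elements and is used to delete genes from the DP stage onward, so that DN cells are not the stage at which it is designed to act. With 1 library per genotype no test was possible, each difference between WT and cKO compares 2 libraries, and the intervals given cover counting error only. Label and reads disagreed in 1 respect. Y-linked genes had 2542 UMIs (unique molecular identifiers, counted transcript molecules) in the WT library and 1 in the cKO library, although both mice are labelled female. Sex and genotype therefore cannot be told apart in any difference between the libraries.

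Notch receptors are cut on the cell surface after they bind their ligand, and the released intracellular part joins the DNA-binding protein RBPJ to switch on target genes. In the thymus, Notch signals commit progenitors to the T lineage and sustain DN cells until a rearranged TCR beta chain pairs with the pre-TCR alpha chain, encoded by *Ptcra*. Signals of this pre-TCR start a burst of division, during which the cells take up CD8 and CD4 and become DP cells. *Notch1* and *Notch3* are receptors, *Hes1* and *Dtx1* are target genes, *Il2ra* encodes CD25 and *Cd44* an adhesion receptor, the proteins by which DN stages are sorted. *Erg* is an ETS-family transcription factor of early progenitors, and *Myl10* encodes a myosin light chain.

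Because RBPJ recognizes a short core, the letters of the core were looked up in the RefSeq promoter windows (GRCm38.p6, 250 bases before to 50 bases after a gene's start). Of the 9 genes, 8 had a window, some of them several (12 windows in all), and *Hes1* had no entry in the table. The RBPJ core TGGGAA, searched on both strands, was found in 5 of the 12 windows, beside 25.6% of all 32851 windows, and these belonged to 4 of the 8 genes (*Cd44*, *Erg*, *Myl10* and *Ptcra*). The stretches are printed to show where the letters lie in the genes whose levels are compared, 5′ to 3′ on the gene's strand, with the core or its reverse complement in capitals.
Ptcra, chr17:46763779-46763808, minus strand: cccagaaagcacTGGGAActagggggtaga
Ptcra, chr17:46763727-46763756, minus strand: gggtctgtgatcTGGGAAgcagtgtagtag
Myl10, chr5:136693064-136693093, plus strand: ttagggtggttcTTCCCAcctcagttaact
Myl10, chr5:136694058-136694087, plus strand: gttcagagagggTTCCCAggatgcagtgcg
Erg, chr16:95459347-95459376, minus strand: ggctgacttcatTTCCCAgacttagcacaa
Cd44, chr2:102901855-102901884, minus strand: tcctcagcttccTGGGAAaaccagtctttc
Cd44, chr2:102901827-102901856, minus strand: tccctagccaggTTCCCAagtttagtggca
In *Ptcra* the 2 cores began 84 and 32 bases before the start. The E-box letters, also searched on both strands, differ from the RBPJ core. CAGCTG was found for *Ptcra*, with 16.3% of all windows holding it, and CAGGTG for *Erg*, with 20.2% of all windows. A match says only that these letters stand in the window.

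Cells were grouped by clustering that left the 9 genes, a list of other Notch and pre-TCR genes and *Eif4g2* out, so the levels below did not define the classes. DN-like cells were 98 of 6012 WT cells (1.63%) and 118 of 4335 cKO cells (2.72%), with 570348 and 769163 UMIs. Of 14 DN markers in the files, none of them among the 9 genes, 11 were raised in this cluster, among them *Cpa3*, *Spib* and *Mpzl2*. After each cell was thinned to 1000 UMIs, *Cd4*, *Cd8a* and *Cd8b1* UMIs were all missing from 72.4% (WT) and 77.1% (cKO) of DN-like cells, against 0.657% and 0.286% of DP-like cells. Before thinning they were all missing from only 31 of 98 WT and 40 of 118 cKO DN-like cells. Most DN-like cells thus held at least 1 coreceptor UMI at full depth. The cluster also held UMIs of genes on the marker lists of other classes. Such UMIs need not come from other cells, and their source was not tested. The 10 DP markers, all with UMIs, summed to 2476 CPM in WT and 1537 CPM in cKO, and the 7 early post-selection markers, also all with UMIs, to 531 and 345 CPM, both higher in WT. Of 8 markers of NKT or gamma delta T cells, 3 in WT and 6 in cKO had UMIs, with summed levels of 584 and 511 CPM. *Gzma* stood at 531 and 484 CPM (UMIs per 1000000 UMIs of the class), while *Zbtb16* and *Klrb1c* had 0 UMIs in both libraries. *Sox13*, itself among the DN markers raised in this cluster and also used by gamma delta T cells, stood at 139 and 87.1 CPM. The 10 markers of mature SP cells summed to 980 and 793 CPM, with *Dapl1* at 0 UMIs in both libraries, and the 4 erythroid markers to 199.9 and 100.1 CPM, and the fibroblast markers *Col1a1* and *Col1a2* had 0 UMIs. The hemoglobin gene *Hbb-bs* stood at 87.7 CPM in WT and 1.30 CPM in cKO DN-like cells. The part of these transcripts, and of any other cells in the cluster, in the results was not tested, except where values without such cells are given.

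Cycling-like cells (993 WT, 1320 cKO) had median depths of 5291 and 6372 UMIs per cell, close to those of DN-like cells at 4830.5 and 5388.5. DP-like cells (3350 WT, 2096 cKO) were shallower, with 1404 and 1358 UMIs. The 3 DP-like clusters were filled unequally: the first held 2284 WT and 130 cKO cells, the second 136 and 1637, and the third 930 and 329. The deposited libraries held 18355050 (WT) and 18056277 (cKO) UMIs. *Eif4g2* itself stood at 223 CPM in WT and 274 CPM in cKO, and since the libraries read tags near the 3′ end of a transcript, which need not lie in the deleted part, these values do not check the deletion. By class, *Eif4g2* stood at 126 (WT) and 212 CPM (cKO) in DN-like cells, 218 and 187 CPM in cycling-like cells and 261 and 524 CPM in DP-like cells, where it was found in 29.9% and 52.7% of cells. The transcript tag was thus higher, not lower, in DP-like cells of the library labelled cKO. With this and the Y-linked UMIs, an exchange of samples or labels was not tested, and WT and cKO stand throughout for the libraries so labelled.

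In both libraries the group marked DN-like cells, and 8 of the 9 genes were lower in DP-like than in DN-like cells by more than 1 on the log2 scale. That threshold was passed by 6.47% of 8382 genes in WT and by 4.93% of 7444 genes in cKO. *Cd44* was the exception in both libraries. From DN-like to cycling-like cells, 9 of 9 genes in WT and 8 of 9 in cKO were lower by more than 1, beside 10% and 10.2% of all genes. *Cd44* passed in WT with −1.05 (−2.42 to 0.66), from 5 UMIs in DN-like cells. No gene of the group was higher by more than 1 in either comparison, while 28% (WT) and 31.9% (cKO) of all genes were higher in DP-like and 11.9% and 11% in cycling-like cells. The median of all genes was shifted by 0.51 (WT) and 0.59 (cKO) in DP-like over DN-like cells, against −0.01 and −0.03 in cycling-like over DN-like cells, so the DP values lie further below that reference than below 0. All genes were asked for at least 50 UMIs over both classes, but the 9 genes were not. *Erg* and *Cd44* fell short in the DP comparison in both libraries. In the cycling comparison *Cd44* fell short in WT and *Erg* in cKO. DN-like cells held fewer UMIs than the other classes, so the filter asks a higher CPM of genes found only there. The shares and medians are thus no close reference.

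At the level of single cells, UMIs of at least 3 of the 9 genes were found together in 83.7% of WT and 79.7% of cKO DN-like cells. The same held for 12.99% and 11.1% of cycling-like cells and for 0.269% and 0.525% of DP-like cells. With each cell thinned to 1000 UMIs, at least 2 of the genes were seen in 65.3% and 52.5% of DN-like, 2.62% and 1.82% of cycling-like, and 0.806% and 0.859% of DP-like cells. The gap between DN-like cells and the others was thus also seen at equal depth. By this thinned count no such cell was found among 64 WT and 25 cKO antigen-presenting-like cells. Before thinning, at least 3 of the genes were found in 1.56% of the WT cells of that class and in 0% of the cKO cells. These cells are too few to set a level for free RNA below the shares of cycling-like and DP-like cells.

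**Figure D1:**
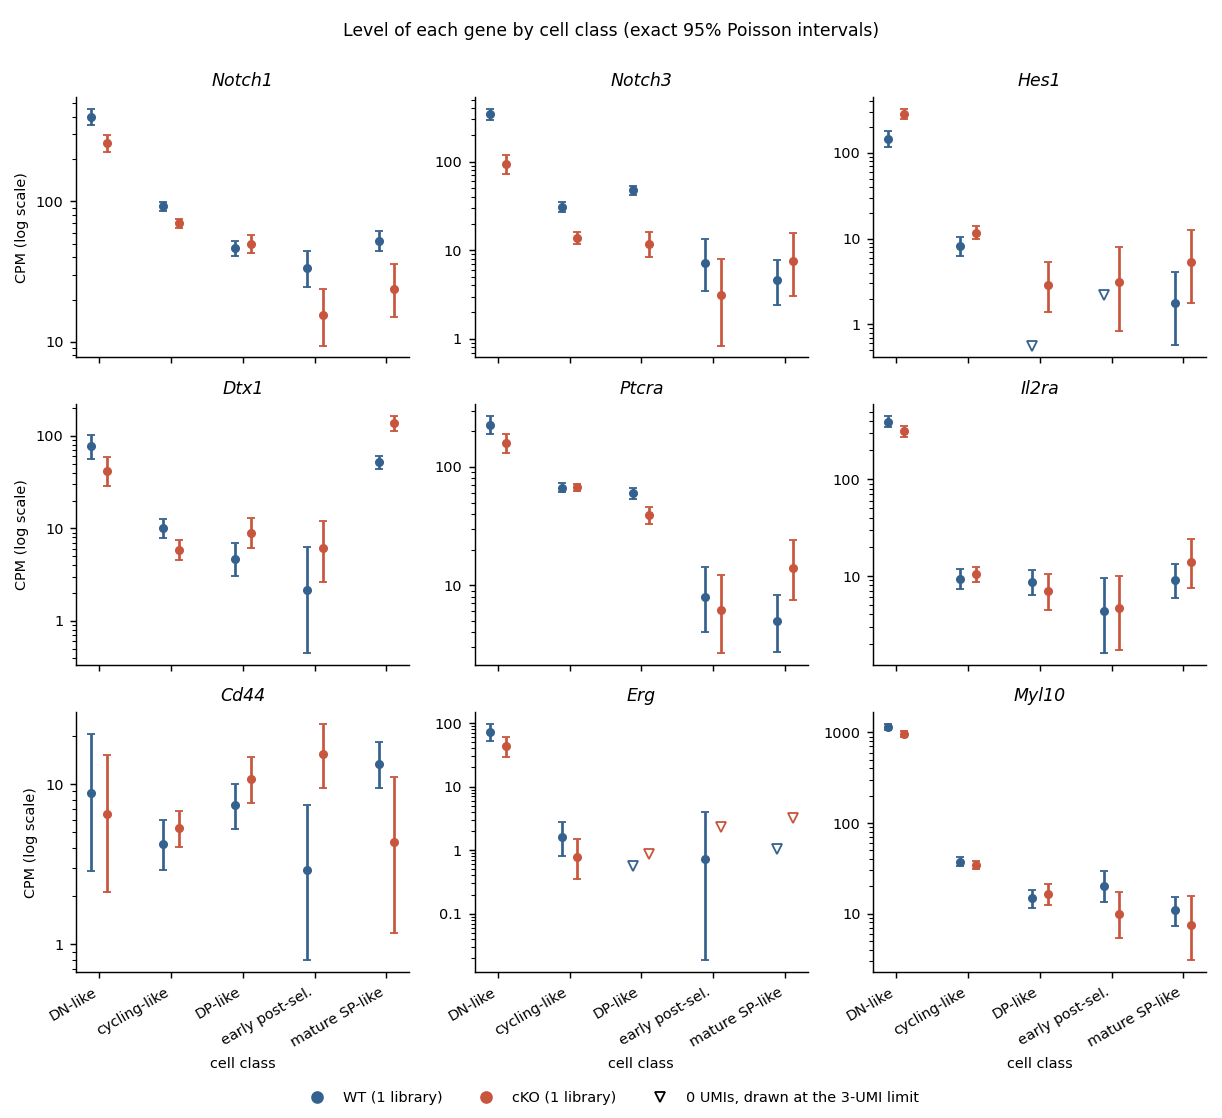
Level of each gene in CPM (log scale) in 5 cell classes of the WT library (blue) and the cKO library (red), with exact 95% Poisson intervals; open triangles mark 0 UMIs, drawn at the level that 3 UMIs would give. Most genes stand highest in DN-like cells, *Dtx1* is raised again in mature SP-like cells, and *Cd44* has no peak in DN-like cells.

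The receptor *Notch1* (ENSMUSG00000026923.15, chr2:26457903-26516663, GRCm38) reached 402 CPM (351 to 457) in WT and 260 CPM (225 to 299) in cKO DN-like cells. In cycling-like cells it stood at 92.1 and 69.6 CPM, and in DP-like cells at 46.2 and 49.8 CPM. The intervals of the 2 libraries did not overlap in DN-like or cycling-like cells and overlapped in DP-like cells. From DN-like to DP-like cells the log2 ratio was −3.12 (−3.38 to −2.85) in WT and −2.38 (−2.69 to −2.08) in cKO. Beyond the DP stage, in early post-selection-like cells, which have just received a TCR signal, *Notch1* stood at 33.4 and 15.4 CPM, and in mature single-positive (SP)-like cells at 52.0 and 23.8 CPM. Cycling-like cells held 50.5% of all *Notch1* UMIs in WT and 65.7% in cKO, and DN-like cells 16.6% and 16.4%. Of the UMIs of all genes, cycling-like cells held 7581244 of 18355050 in WT and 11486999 of 18056277 in cKO. Such shares thus follow the number and depth of the cells as well as the level of the gene.

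*Notch3* (ENSMUSG00000038146.8, chr17:32120820-32166852), the second Notch receptor of early thymocytes, differed more between the libraries. It stood at 344 CPM (297 to 395) in WT and 93.6 CPM (73.2 to 118) in cKO DN-like cells, from 196 and 72 UMIs. In cycling-like cells the levels were 30.7 and 13.7 CPM, and in DP-like cells 47.4 CPM (41.7 to 53.6) and 11.6 CPM (8.32 to 15.9). WT was thus higher in all 3 classes, with no overlap of the intervals. In WT the DP-like level was above that of cycling-like cells, whereas in cKO the intervals of these classes overlapped. After selection *Notch3* was low, with 10 and 4 UMIs in early post-selection-like and 13 and 7 UMIs in mature SP-like cells. Of all *Notch3* UMIs, DP-like cells held 35.6% in WT and 14.3% in cKO.

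Among the target genes, *Hes1* (ENSMUSG00000022528.8, chr16:30064384-30067796), a transcriptional repressor induced by Notch, ran the other way. It stood at 146 CPM (116 to 180) in WT and 287 CPM (251 to 328) in cKO DN-like cells and was found in 37.8% and 56.8% of them. In cycling-like cells it stood at 8.18 and 11.8 CPM. In DP-like cells 0 UMIs were counted among 5298051 in WT, with an exact upper limit of 0.696 CPM. In cKO 10 UMIs in 10 different cells were counted (2.91 CPM). With the 0 UMIs set to a floor of 3, the log2 ratio of DP-like to DN-like cells was −8.01 in WT, and its exact upper limit was −7.68. In cKO the ratio was −6.62, and both were among the steepest in the group. The 10 UMIs lay in 0.477% of cKO DP-like cells, and in a droplet method free RNA also gives single UMIs, so they are not read as expression. Among antigen-presenting-like cells, with median depths of 1988 and 1827 UMIs, *Hes1* UMIs were found in 1 of 64 WT and 1 of 25 cKO cells, and UMIs of *Ptcra*, *Myl10* and *Erg* in none.

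*Dtx1* (ENSMUSG00000029603.15, chr5:120680202-120711927), which encodes the E3 ubiquitin ligase Deltex-1, was not a marker of DN-like cells alone. It stood at 77.1 CPM (56.1 to 104) and 41.6 CPM (28.5 to 58.7) there, at 10.02 and 5.83 CPM in cycling-like cells and at 4.72 and 9.03 CPM in DP-like cells. In mature SP-like cells it returned to 51.7 CPM (43.7 to 60.8) in WT and 137 CPM (115 to 163) in cKO. Mature SP-like cells held 47.7% of all *Dtx1* UMIs in WT and 47.6% in cKO, more than any other class in either library. In DN-like cells the WT level rested on few cells: those with a *Sox13* or *Cd163l1* UMI (29 WT and 31 cKO cells) had 24 UMIs of *Dtx1* in WT (120 CPM) and 1 in cKO (5.03 CPM), while the other DN-like cells had 54.1 and 54.3 CPM.

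*Ptcra* (ENSMUSG00000036858.8, chr17:46755663-46763712) kept more of its DN-like level in cycling-like and DP-like cells than the other genes apart from *Cd44*. In DN-like cells it stood at 226 CPM (189 to 269) in WT and 159 CPM (132 to 189) in cKO, in cycling-like cells at 66.7 CPM (61.1 to 72.8) and 67.3 CPM (62.6 to 72.2), and in DP-like cells at 59.8 CPM (53.4 to 66.8) and 39.0 CPM (32.7 to 46.2). The log2 ratios over DN-like cells were −1.76 and −1.24 in cycling-like and −1.92 and −2.02 in DP-like cells. The pre-TCR is needed during the dividing stage. Cycling-like cells held 51.6% of *Ptcra* UMIs in WT and 73.6% in cKO. Of the UMIs of all genes they held 7581244 of 18355050 in WT and 11486999 of 18056277 in cKO. In early post-selection-like cells *Ptcra* was down to 7.99 and 6.17 CPM. When classes were set by coreceptor and *Mki67* or *Top2a* UMIs of single cells in place of clusters, *Ptcra* in WT was no longer lower than in DN cells (log2 ratios of 0.12 in cycling and 0.076 in DP cells), while in cKO it was lower under every alternative. That alternative changes the makeup of all 3 classes, and the cause was not tested.

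*Il2ra* (ENSMUSG00000026770.5, chr2:11642807-11693193) was mostly found in DN-like cells. It stood at 394 CPM (345 to 450) in WT and 315 CPM (276 to 357) in cKO, against 9.37 and 10.4 CPM in cycling-like and 8.68 and 6.99 CPM in DP-like cells. The log2 ratios from DN-like cells were −5.40 and −4.91 in cycling-like cells and −5.51 and −5.49 in DP-like cells. DN-like cells, 1.63% and 2.72% of the cells, held 60.0% and 59.8% of its UMIs.

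*Myl10* (ENSMUSG00000005474.9, chr5:136693146-136701094) had the same profile with more molecules. Its levels were 1155 CPM (1069 to 1247) in WT and 959 CPM (892 to 1031) in cKO DN-like cells, where it was found in 86.7% and 86.4% of cells. In cycling-like cells it stood at 37.5 and 34.6 CPM, and in DP-like cells at 14.7 and 16.6 CPM. The share of *Myl10* UMIs in DN-like cells, 61.0% and 60.8%, was close to that of *Il2ra*.

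*Erg* (ENSMUSG00000040732.20, chr16:95359169-95586593) was scarcer but the most confined to DN-like cells by its share of UMIs. DN-like cells held 41 of 54 UMIs in WT (75.9%) and 33 of 42 in cKO (78.6%), at 71.9 CPM (51.6 to 97.5) and 42.9 CPM (29.5 to 60.3). No UMI of *Erg* was found in DP-like or mature SP-like cells of either library, with exact upper limits of 0.696 (WT) and 1.07 CPM (cKO) in DP-like cells. In WT cycling-like cells its 12 UMIs came from 2 cells, 11 of them from 1 cell, so the level there describes single cells.

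*Cd44* (ENSMUSG00000005087.17, chr2:102811141-102901665) behaved unlike the other genes. DN-like cells had 5 UMIs in each library (8.77 and 6.50 CPM), and its interval in DN-like cells overlapped those in cycling-like and DP-like cells in both. Its levels were higher outside the main path, at 78.3 and 57.3 CPM in an unnamed cluster of 55 WT and 14 cKO cells led by *S100a6*, *Ly6c2* and *Nkg7*, and at 43.6 and 188 CPM in antigen-presenting-like cells. CD44 protein marks the earliest DN cells. By transcript, *Il2ra* UMIs without *Cd44* UMIs were found in 62 of 98 WT and 72 of 118 cKO DN-like cells, both genes in 4 and 3 cells, *Cd44* alone in 0 and 2 cells, and neither in 32 and 41 cells. A missing UMI does not show that the protein is missing, and sorted DN stages were not measured.

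DN-like cells with *Il2ra* alone and with neither gene were compared for the other genes, with the gates set by UMIs and hence by depth. In WT *Hes1* stood at 144 CPM (108 to 188) with *Il2ra* and 61.7 CPM (28.2 to 117) with neither, and in cKO at 356 CPM (305 to 413) and 112 CPM (72.2 to 165). *Dtx1* stood at 101 against 27.4 CPM in WT and 57.5 against 13.4 CPM in cKO, where the intervals overlapped. *Notch3* was nearer to equal, with 378 and 315 CPM in WT and 109 and 84.8 CPM in cKO, and its intervals overlapped in both libraries, as did those of *Ptcra*. In either kind of cell *Notch3* was lower in cKO than in WT.

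DN-like cells were also divided by UMIs of the cell cycle genes *Mki67* and *Top2a*, at least 1 of which was found in 17 WT and 33 cKO cells. This gate follows depth, with medians of 7597 and 7696 UMIs in cells with and 4699 and 5153 in cells without such a UMI, and free RNA can also give single UMIs, so it is not read as division. After thinning to 1000 UMIs, *Mki67* was seen in 2 WT and 1 cKO cells and *Top2a* in 2 and 9. *Top2a* UMIs were found in 15.3% and 22.03% of DN-like cells before thinning, against 80.1% and 80.9% of cycling-like cells and 6.25% (WT) of antigen-presenting-like cells at their lower depth. In WT the cells with such a UMI had less *Ptcra* than the other DN-like cells (40.5 against 291 CPM, log2 ratio −2.85, −4.32 to −1.68), from 6 UMIs, and less *Notch3* (128 against 419 CPM, −1.71, −2.47 to −1.02). In cKO the corresponding log2 ratios were −0.58 (−1.20 to 0.01) and −0.73 (−1.59 to 0.06), whose intervals reach 0. For *Il2ra* the log2 ratios were 0.09 (−0.36 to 0.52) and −0.17 (−0.57 to 0.23), and both intervals included 0.

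**Figure D2:**
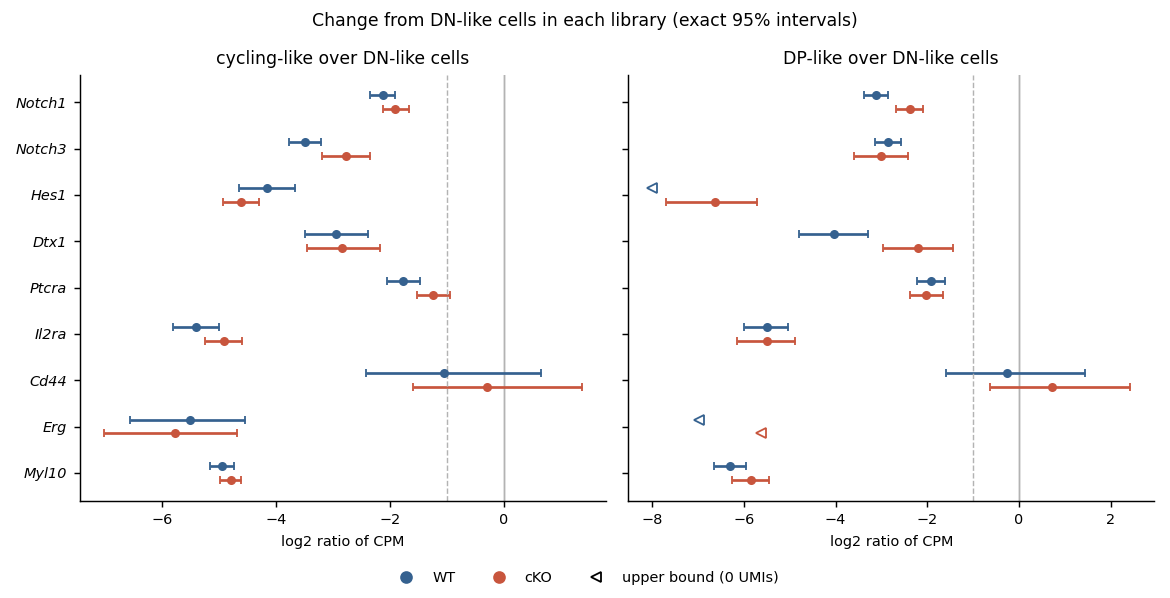
Log2 ratio of CPM in cycling-like (left) and DP-like cells (right) over DN-like cells of the same library, WT in blue and cKO in red, with exact 95% intervals; open triangles are upper bounds where 0 UMIs were found, and the dashed line marks −1. Beside *Cd44*, *Ptcra* and *Notch1* lie nearest to the line in cycling-like cells, *Il2ra*, *Erg*, *Myl10* and *Hes1* furthest from it, and the intervals of *Cd44* include 0.

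Cycling-like cells span the passage from DN to DP, so they were divided by coreceptor UMIs counted after thinning to 1000 UMIs. No coreceptor UMI was found in 166 WT and 230 cKO cells, *Cd8a* or *Cd8b1* alone in 581 and 774, *Cd4* alone in 25 and 17, and both in 221 and 299. Median depths were lower along this order, from 11118.5 and 12714 UMIs without a coreceptor UMI over 5220 and 6164 with *Cd8* alone to 4035 and 4883 with both. The genes did not leave in step. *Il2ra* stood at 18.9 and 22.4 CPM in cells without a coreceptor UMI, 5.14 and 7.02 CPM with *Cd8* alone, and 2.77 and 1.78 CPM (3 UMIs each) with both. *Myl10* went from 74.2 and 70.1 CPM without a coreceptor UMI to 13.8 and 20.1 CPM with both. *Hes1* went from 12.8 and 24.9 CPM to 0 UMIs in WT and to 2.96 CPM in cKO (−3.07, −4.73 to −1.79). In WT the log2 ratio was −2.21 with a floor of 3 UMIs, and its exact upper limit was −1.81.

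*Notch3* went up along the same axis. Its levels were 17.0 CPM (WT) and 9.97 CPM (cKO) without a coreceptor UMI, 34.7 and 11.4 CPM with *Cd8* alone, and 45.2 and 29.6 CPM with both, a log2 ratio of both over none of 1.41 (0.76 to 2.07) in WT and 1.57 (0.90 to 2.26) in cKO. Between the cells with none and with *Cd8* alone the intervals overlapped in cKO (6.82 to 14.1 and 8.92 to 14.3 CPM) and did not in WT (11.9 to 23.6 and 29.2 to 40.9 CPM). *Ptcra* did not move beyond counting error between the cells with none and with both, with log2 ratios of 0.35 (−0.10 to 0.79) and −0.32 (−0.69 to 0.05). *Notch1* was lower with both coreceptors, with −0.43 (−0.80 to −0.07) in WT and −1.04 (−1.43 to −0.68) in cKO.

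**Figure D3:**
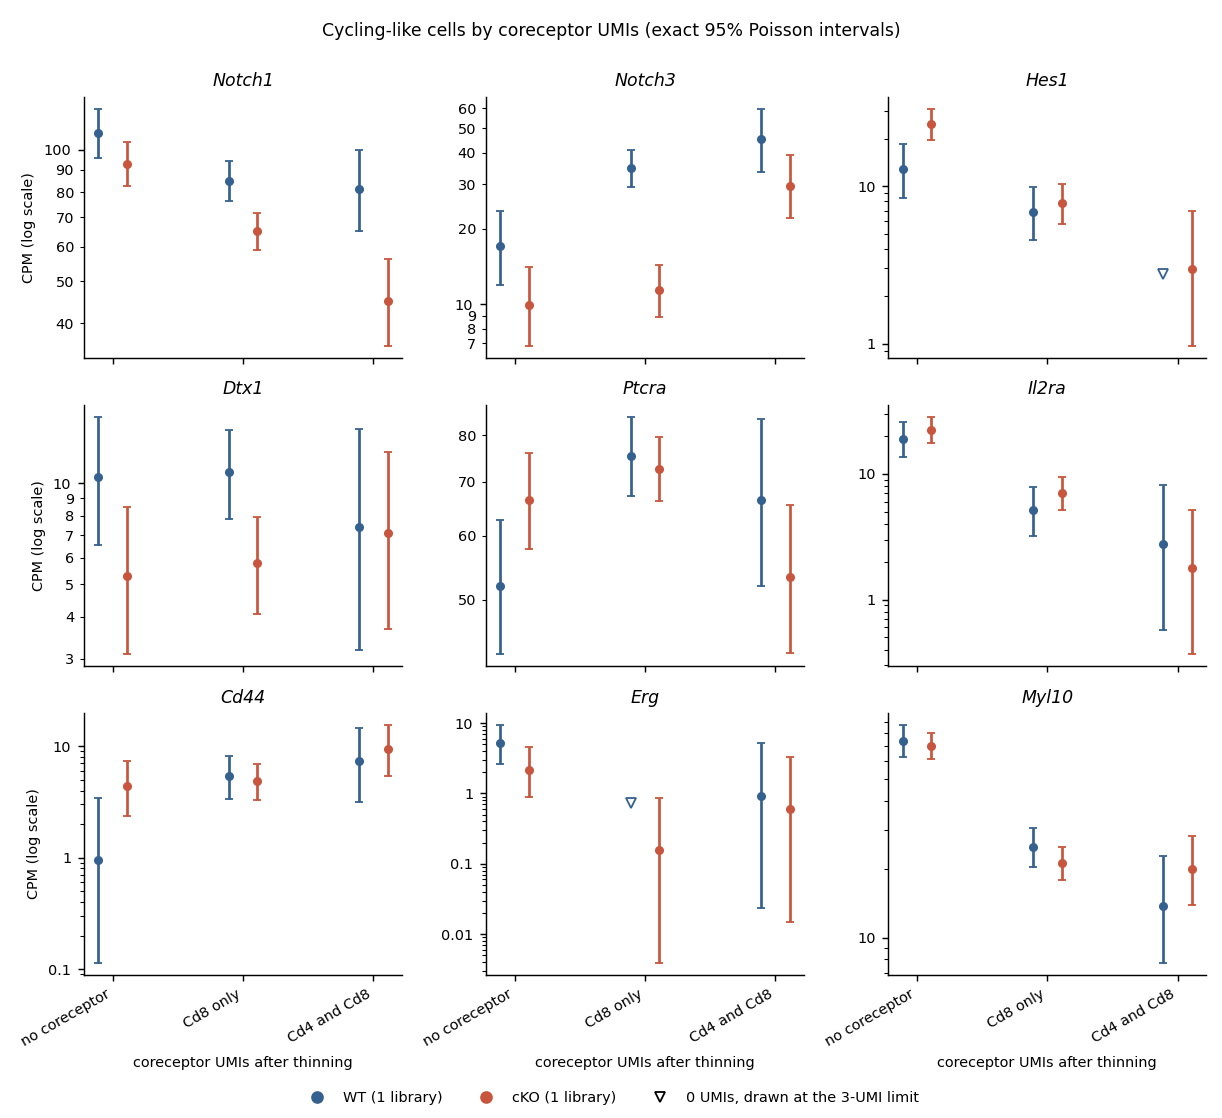
Level of each gene in CPM (log scale, a separate scale for each gene) in cycling-like cells without a coreceptor UMI, with *Cd8a* or *Cd8b1* UMIs alone, and with *Cd4* and *Cd8* UMIs, WT in blue and cKO in red, with exact 95% Poisson intervals; open triangles mark 0 UMIs. *Notch3* is higher with both coreceptors than with none in each library, while *Il2ra*, *Hes1* and *Myl10* are lower.

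One of the 3 cycling-like clusters was deeper than the others, with a median of 9221 UMIs per cell and *Pclaf*, *Tk1* and *Srm* among its leading genes, and it made up 12.7% of WT but 38.4% of cKO cycling-like cells. It held 80.3% and 84.2% of the *Il2ra* UMIs of cycling-like cells, 61.3% and 93.3% of those of *Hes1*, 56.7% and 76.6% of those of *Myl10*, and 12 of 12 and 7 of 9 of those of *Erg*. By contrast it held 13.7% and 40.8% of the *Notch3* UMIs and 17.4% and 56.3% of the *Ptcra* UMIs, beside 23.5% and 50.1% of all UMIs of the class. The levels of the first 4 genes in cycling-like cells thus depend on the size of this cluster, which differed between the libraries.

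**Figure D4:**
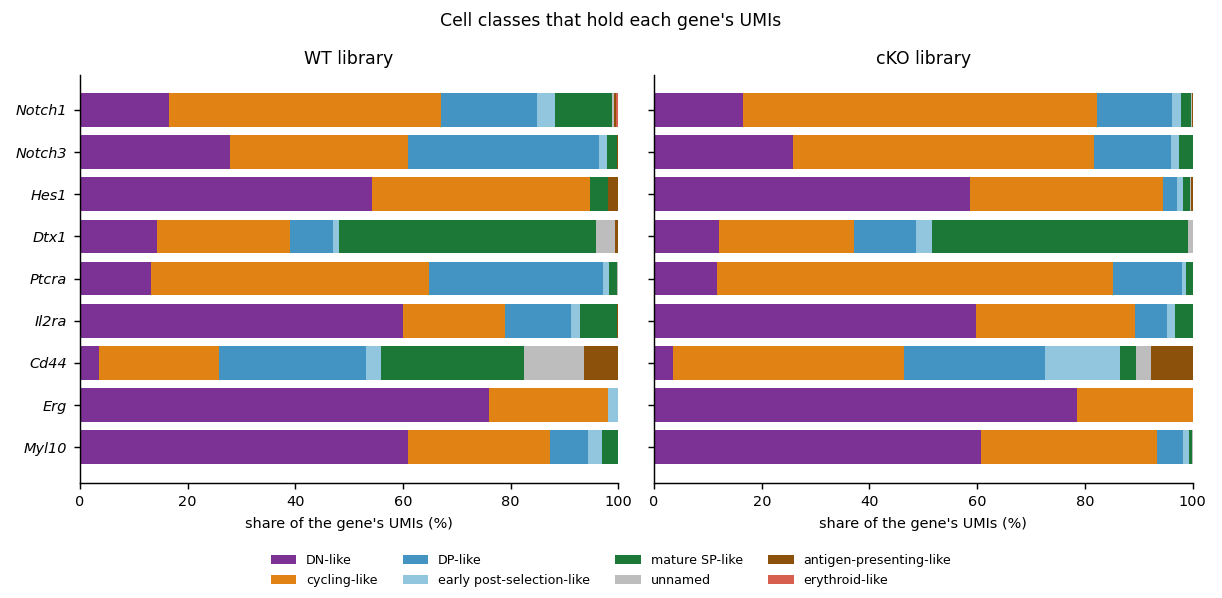
Share of each gene's UMIs (in %) held by each cell class in the WT library (left) and the cKO library (right). DN-like cells hold the largest share for *Hes1*, *Il2ra*, *Erg* and *Myl10*, cycling-like cells for *Notch1* and *Ptcra*, and mature SP-like cells for *Dtx1*.

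Between the libraries, the largest difference of the group in DN-like cells was that of *Notch3*, which was lower in cKO, and *Hes1* was the member that was higher. Of the 8 genes with at least 20 UMIs (*Cd44* fell short), 5 had a log2 ratio of cKO to WT below −0.5 and 1 had one above 0.5, while 27.6% of 3508 genes were lower and 10.1% higher. The median over the 8 genes was −0.57, beside −0.11 over all genes. The log2 ratios of cKO to WT were −1.88 (−2.29 to −1.48) for *Notch3*, 0.98 (0.61 to 1.36) for *Hes1*, −0.63 (−0.91 to −0.35) for *Notch1* and −0.51 (−0.88 to −0.14) for *Ptcra*. For *Dtx1* the value was −0.89 (−1.60 to −0.20), and without the DN-like cells that had a *Sox13* or *Cd163l1* UMI it was 0.0078. *Erg* had −0.74 (−1.45 to −0.05), which turned to 0.77 in the DN-like cells without any coreceptor UMI (31 WT and 40 cKO cells). *Il2ra* and *Myl10* differed least, with −0.33 (−0.59 to −0.06) and −0.27 (−0.42 to −0.11), and neither kept its direction throughout: *Il2ra* was at 0.083 with each cell thinned to 1000 UMIs, and with classes set by coreceptor and *Mki67* or *Top2a* UMIs the values were 0.87 and 0.88.

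When DN cells were set by coreceptor and *Mki67* or *Top2a* UMIs alone, which gave 256 WT and 144 cKO cells and takes in cells of other clusters, the median over the genes was 0.58. The values of *Notch3* (−2.47 to −1.31) and *Notch1* (−1.24 to −0.35) stayed below 0 and that of *Hes1* (0.73 to 1.97) above 0 under each of the 12 alternatives computed for DN-like cells. The DN-like cells of the libraries also differed in makeup. An *Mki67* or *Top2a* UMI was found in 33 of 118 cKO and 17 of 98 WT cells. That gate follows depth, which was higher in cKO (medians of 5388.5 and 4830.5 UMIs), so it is not read as division. *Cpa3* stood at 87.7 CPM in WT and 157 CPM in cKO, *Kit* had 3 and 12 UMIs, and *Spib* stood at 38.6 and 7.80 CPM. *Erg* stood at 71.9 CPM (51.6 to 97.5) in WT and 42.9 CPM (29.5 to 60.3) in cKO, with overlapping intervals. *Cd44* had 5 UMIs in each library. The 14 DN markers summed to 445 CPM in WT and 527 CPM in cKO. The part of this makeup in the differences was not tested, apart from the values without cells that had an *Mki67* or *Top2a* UMI, which were −1.94 for *Notch3* and 0.73 for *Hes1*.

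In cycling-like cells 3 of 9 genes were lower and 1 higher in cKO by more than 0.5, beside 35% and 3.22% of 9399 genes. Among the 3 lower genes was *Erg*, with −1.01 (−2.44 to 0.36) from 12 WT and 9 cKO UMIs. Of its WT UMIs, 11 came from 1 cell. *Erg* thus fell short of the 50 UMIs asked of all genes, so those shares are no like reference for it. The median over the genes was −0.12, above the −0.27 of all genes. *Notch3* again had the largest difference, with −1.17 (−1.47 to −0.87), followed by *Dtx1* with −0.78 (−1.28 to −0.29) among genes whose interval left out 0, though *Dtx1* was at 0.021 among cells of 1000 to 10000 UMIs. *Hes1* was at 0.52 (0.08 to 0.98), but without the deepest cluster its value was −1.40, since 38 of its 62 WT UMIs and 126 of its 135 cKO UMIs lay there. *Ptcra* stood at 0.01 (−0.15 to 0.18).

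In DP-like cells 7 genes had at least 20 UMIs, of which 2 were lower and 2 higher in cKO, beside 29.5% and 8.45% of 8863 genes. The median over the genes was 0.11, against −0.18 for all genes, but it was below 0 under 6 of 9 alternatives (−0.22 to 0.29 in all), so it gives no direction. *Notch3* was at −2.02 (−2.54 to −1.54), *Ptcra* at −0.62 (−0.92 to −0.32), *Dtx1* at 0.94 (0.13 to 1.76) and *Cd44* at 0.55 (−0.14 to 1.24), while *Notch1* differed by 0.11 (−0.18 to 0.39). The *Notch3* difference was present in each DP-like cluster, although different clusters held most cells of each library. Its levels in the WT and cKO cells were 48.9 and 15.7 CPM (4 cKO UMIs) in the first cluster, 47.7 (8 WT UMIs) and 10.8 CPM in the second, and 43.2 and 12.8 CPM in the third. *Ptcra* stood at 58.6 and 35.3, 77.4 and 41.3, and 61.0 and 33.2 CPM in the same order.

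**Figure D5:**
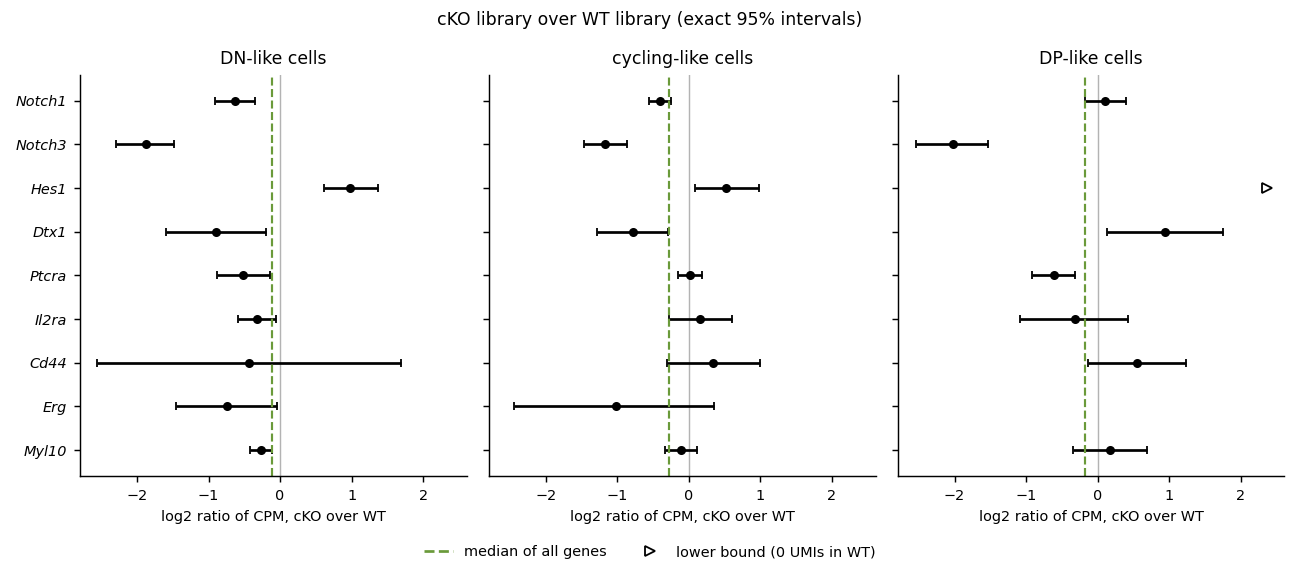
Log2 ratio of CPM, cKO library over WT library, in DN-like, cycling-like and DP-like cells, with exact 95% intervals; the green dashed line is the median of all genes with at least 50 UMIs, and genes with fewer than 10 UMIs in a class are left out. *Notch3* lies left of the line in the 3 classes, and *Hes1* lies right of it, as a lower bound in DP-like cells.

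In mature SP-like cells *Dtx1* had a log2 ratio of cKO to WT of 1.41 (1.06 to 1.76), where 8.78% of all genes were higher by more than 0.5 and 36% lower. It was already above 0 in DP-like cells, at 0.94 (0.13 to 1.76). In DN-like cells it was at −0.89, but at 0.0078 without the cells that had a *Sox13* or *Cd163l1* UMI. *Notch1* was at −1.13 (−1.85 to −0.48) in mature SP-like cells. In early post-selection-like cells it was at −1.12 (−1.95 to −0.33), where 35.9% of all genes were lower and 8.01% higher. These classes held 716 and 214, and 692 and 544 cells, and the share of mature SP-like cells itself was 11.9% in WT and 4.94% in cKO.

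Ratios between the libraries varied with the length of the gene, which is given here because the 9 genes span 3.41 kb (*Hes1*) to 227 kb (*Erg*). In DN-like cells the median log2 ratio of cKO to WT was 0.14 for genes of up to 5 kb, 0.06 for 5 to 20 kb, −0.15 for 20 to 50 kb, −0.52 for 50 to 100 kb and −0.96 above 100 kb, and the order was the same in cycling-like and DP-like cells. *Notch3* spans 46.0 kb, and its −1.88 lay below the −0.15 of its length class. *Dtx1* (31.7 kb), at −0.89, also lay below it. *Notch1* (58.8 kb) lay below and *Il2ra* (50.4 kb) above the −0.52 of theirs, and *Erg* lay above the −0.96 of the longest genes. *Hes1* lay above the 0.14 of short genes, and *Ptcra* (8.05 kb) and *Myl10* (7.95 kb) lay below the 0.06 of theirs. What part gene length has in these values was not tested.

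Of 62 further genes of Notch signaling and the pre-TCR, 60 were in the files and 30 had at least 50 UMIs in DN-like cells. In cKO 10 of these were lower by more than 0.5 and none was higher, beside 27.6% and 10.1% of all genes, and their median was −0.30. The coactivators of the Notch complex *Maml2* (105 CPM in WT, 18.2 CPM in cKO) and *Maml3* (123 and 31.2 CPM) and the acetyltransferase *Kat2b* (84.2 and 18.2 CPM) had the lowest log2 ratios, at −2.53, −1.98 and −2.21. Each of the 3 spans more than 100 kb, the length class with a median of −0.96. The transcription factor *Tcf12*, an E protein, was at −1.39 (465 and 177 CPM), the ubiquitin ligase *Itch* at −1.18, and *Bcl11b*, a factor of T lineage commitment, at −0.99 (1215 and 611 CPM). The kinase *Fyn* (−0.88), *Dtx3* (−0.61), the adaptor *Lcp2* (−0.53) and the CD3 zeta chain *Cd247* (−0.52) made up the rest, and the intervals of *Dtx3* (−1.37 to 0.14) and *Lcp2* (−1.08 to 0.02) included 0. *Tcf12* and *Fyn* also span more than 100 kb, and *Itch*, *Bcl11b* and *Cd247* span 50 to 100 kb, where the median was −0.52. *Fyn* lay above the median of its length class, *Cd247* was level with it, and the others of the 10 lay below theirs. What part length has in these values was not tested. *Rbpj* itself, from 22 and 31 UMIs, was at 0.06 (−0.77 to 0.92), and the CD3 genes *Cd3e* and *Cd3g* were at 0.10 and 0.08. In cycling-like cells 25 of 50 list genes were lower and 1 (*Nrarp*, a target that dampens Notch signals, with 29 and 71 UMIs) was higher, beside 35% and 3.22% of all genes. In DP-like cells 14 of 48 were lower and 2, *Psenen* (0.50) and *Kat2a* (0.63, with an interval that included 0), were higher, a share of lower genes close to the 29.5% of all genes, of which 8.45% were higher.

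Genes outside the group with a like profile were sought over 19 profiles, the T-lineage clusters of each library with at least 20 cells, among 9774 genes. The highest Pearson correlations with the mean profile of the 9 genes were those of *Rab44* (r = 0.98), *Epb41l4b* (0.97), *Gm45021* (0.97), *Khdc1a* (0.96), *Paqr5* (0.96), *Cpa3* (0.95), *Mpzl2* (0.95), *Hdac4* (0.94), *Cdkn1a* (0.94) and *Tmem121* (0.93). The profiles share 2 libraries, so r is a description. Each of these 10 genes had a higher level in DN-like than in cycling-like and DP-like cells in both libraries. This follows from their choice by the same profile and is no separate result. *Cpa3* and *Mpzl2* were among the markers of the class. *Rab44* stood at 66.6 and 41.6 CPM in DN-like and at 1.70 and 0.291 CPM in DP-like cells, and *Tmem121* at 209 and 212 CPM in DN-like and at 3.21 and 6.12 CPM in DP-like cells. For the 9 genes themselves, r was taken with a mean that includes the gene. It ran from 0.97 (*Erg*), 0.96 (*Il2ra*), 0.95 (*Myl10*) and 0.94 (*Hes1*) through 0.88 (*Notch1*), 0.79 (*Notch3*) and 0.71 (*Ptcra*) to 0.50 (*Dtx1*) and −0.05 (*Cd44*).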

How the data were processed

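Single-cell RNA libraries of the DNBelab C4 system were compared, 1 of WT and 1 of *Eif4g2* cKO thymocytes. The authors counted UMIs with dnbc4tools and deposited them as raw counts per gene and barcode, with at least 1000 UMIs per barcode and no normalization, and the processing notes name mm10. The labels also list an oligo library per mouse, and none of the values was assigned to these. Barcode names are running names, 1055 of which occur in both libraries, so shared barcodes could not be counted.

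Cells with at least 50 genes and at most 10% mitochondrial UMIs were kept (6012 of 6014 WT and 4335 of 4335 cKO barcodes), and no doublets were removed. Counts scaled to 10000 per cell were clustered with scanpy 1.11.5 (2000 variable genes, 30 components, 20 neighbours, Leiden resolution 1), and again within the T lineage. A cluster was called X-like when at least 3 listed markers were raised by 0.5 (log2) and its leading genes did not favour another list, and other clusters stayed unnamed. The names are rebuilt, so shares need not match those of the study. UMIs were summed per class and library and given as CPM with exact Poisson intervals at 95%, ratios with exact conditional binomial intervals, and shares without or with thinning to 1000 UMIs (0 cells left out). Where 1 side had 0 UMIs, a floor of 3 UMIs per class and library gave a bound. A gene was called between libraries past 0.5, and between classes past 1, on the log2 scale, with at least 50 UMIs for all genes. Positions are from GENCODE M21 (97.5% of identifiers matched). The log2 ratios and their intervals were tested on simulated counts, while the clustering, the naming of classes and the thinning were not.

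The 9 genes, the marker lists and the pathway list were chosen with earlier results of these data known. Named genes were the 9 genes, list genes past 0.5 in DN-like cells, the 10 genes with the most similar profile, and others as checks of the classes. *Nrarp*, *Psenen*, *Kat2a*, *Rbpj*, *Cd3e* and *Cd3g* were named after their values were seen. Of the pathway list, *Trbc1* and *Trbc2* were not among the symbols used here.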

Additional observations from a re-analysis of the deposited data

Results flagged for a closer look

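*Dtx1* moved in opposite directions between DN-like and mature SP-like cells in the libraries. In WT the log2 ratio of mature SP-like over DN-like cells was −0.58 (−1.07 to −0.06, from 147 and 44 UMIs), and in cKO it was 1.72 (1.15 to 2.33, from 127 and 32 UMIs). With 1 library per genotype the difference between these values was not tested. In WT 24 of the 44 DN-like UMIs lay in 29 cells with a *Sox13* or *Cd163l1* UMI.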

How the results depend on the processing

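With 1 library per genotype the intervals cover counting error only, and a share of cells with a UMI also depends on depth. No paired analysis was possible because each genotype has 1 library. In all 13 alternatives were computed, 4 of them (leaving out kinds of DN-like cells or the deepest cycling-like cluster) chosen after seeing the data, each for the results whose cells it changes. The counts of genes lower in DP-like and cycling-like than in DN-like cells ran from 6 to 9 of 9 and stayed within 1.5 times throughout.

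The median over the genes in DN-like cells turned to 0.58 with classes from coreceptor and *Mki67* or *Top2a* UMIs and lay between −0.74 and −0.38 under the other alternatives. In cycling-like cells it was −0.41 without the deepest cluster and 0.16 centred on all genes, and in DP-like cells −0.22 with 1000 to 10000 UMIs per cell and −0.22 after thinning. The median in DP-like cells was below 0 under 6 of 9 alternatives, against the sign of the value reported, and in cycling-like cells under 6 of 10. With classes from coreceptor and cycle UMIs, *Ptcra* in WT reversed in DP-like (0.076) and cycling-like cells (0.12) over DN-like cells, and between the libraries in DN-like cells *Ptcra* (0.58) and *Erg* (1.89) reversed. *Erg* also reversed in DN-like cells without a coreceptor UMI (0.77) and *Dtx1* without *Sox13* or *Cd163l1* cells (0.0078). In cycling-like cells *Hes1* reversed without the deepest cluster (−1.40) and *Dtx1* with 1000 to 10000 UMIs (0.021). The cause was not tested. Of 261 values of single genes between the libraries, 220 lay within the interval of the value reported, and of 412 between classes, 291 did.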
